A study of Homo sapiens with 18 samples.

Results

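The 40 genes described here act in mitosis and in the passage from G2 into it. They were taken from the RNA-Seq tables by gene ID from a fixed list of symbols, and all 40 of 40 were found among the 23604 genes listed in at least 1 library. The cells were MCF10A-Er-Src, a human breast epithelial line that carries v-Src fused to the ligand-binding part of the estrogen receptor, so that tamoxifen switches the oncoprotein on. Cells kept without tamoxifen are called NT, and cells that 2 µM tamoxifen had transformed are called TAM. Both kinds then spent 4 h in DMSO, the solvent, or in 0.125 µM triptolide (TPL), which binds the XPB subunit of the transcription factor TFIIH. The 4 groups (NT, NT + TPL, TAM, TAM + TPL) held 2 RNA-Seq libraries each, described by the study as independent biological replicates, and the RNA polymerase II (RNAPII) ChIP-Seq samples gave 1 peak list per condition. All groups came from a single engineered line, and the comparison of TAM with NT cells cannot tell the action of tamoxifen apart from that of v-Src.

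Entry into mitosis is set by cyclin B and CDK1, whose activity is held back by phosphorylation until CDC25 phosphatases release it. Aurora kinases, PLK1 and kinesins then build the spindle, the checkpoint kinases delay anaphase until every kinetochore is attached, and the anaphase-promoting complex with CDC20 starts the separation of the chromosomes by destroying securin and cyclins. Most of these genes are transcribed late in the cell cycle, when the MuvB complex with MYBL2 and FOXM1 takes over their promoters, which often hold a cell cycle genes homology region (CHR) and CCAAT boxes bound by NF-Y. In quiescent cells the DREAM complex keeps the same promoters repressed.

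Promoters are shown for the 4 genes whose response to TPL differed most in size between TAM and NT cells, among all 40, because the RNAPII peaks and the late cell cycle motifs meet in these windows. Each window runs from 250 bases before to 50 bases after the RefSeq start (GRCh38.p14 table), was found unchanged in hg19, and lies on the plus strand. Capitals mark CHR matches (TTTGAA or TTCGAA on either strand) and CCAAT boxes (CCAAT on either strand). The windows are NDC80 at chr18:2571306-2571605, HMMR at chr5:162887388-162887687, PLK1 at chr16:23689960-23690259 and CENPA at chr2:27008674-27008973.
NDC80: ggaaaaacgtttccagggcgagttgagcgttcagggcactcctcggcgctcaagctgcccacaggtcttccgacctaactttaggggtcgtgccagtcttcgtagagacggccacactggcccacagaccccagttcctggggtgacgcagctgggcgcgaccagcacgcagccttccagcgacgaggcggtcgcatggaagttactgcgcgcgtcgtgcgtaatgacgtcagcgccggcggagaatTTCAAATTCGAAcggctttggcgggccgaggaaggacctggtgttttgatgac
HMMR: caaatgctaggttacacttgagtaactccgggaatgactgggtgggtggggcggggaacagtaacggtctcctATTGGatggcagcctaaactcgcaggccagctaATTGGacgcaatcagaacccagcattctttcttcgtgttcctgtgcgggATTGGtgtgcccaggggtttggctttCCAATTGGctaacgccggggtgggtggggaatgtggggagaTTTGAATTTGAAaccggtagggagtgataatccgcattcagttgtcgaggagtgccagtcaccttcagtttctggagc
PLK1: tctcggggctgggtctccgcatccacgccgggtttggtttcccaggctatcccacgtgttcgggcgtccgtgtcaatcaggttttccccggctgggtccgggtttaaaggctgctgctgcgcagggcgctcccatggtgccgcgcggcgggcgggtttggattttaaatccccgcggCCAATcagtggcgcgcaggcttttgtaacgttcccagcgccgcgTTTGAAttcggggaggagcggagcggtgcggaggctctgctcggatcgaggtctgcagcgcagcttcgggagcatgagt
CENPA: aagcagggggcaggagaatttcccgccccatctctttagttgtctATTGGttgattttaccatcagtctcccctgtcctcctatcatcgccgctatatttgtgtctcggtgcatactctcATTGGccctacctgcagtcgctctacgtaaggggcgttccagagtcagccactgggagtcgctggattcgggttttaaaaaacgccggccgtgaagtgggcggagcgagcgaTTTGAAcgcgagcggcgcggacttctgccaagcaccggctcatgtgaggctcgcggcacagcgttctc

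NDC80 held 2 adjoining CHR matches that lie across its start, beginning 3 bases before it and at base 4 after it, and no CCAAT box. HMMR held 2 adjoining CHR matches, 28 and 22 bases before the start, and 5 CCAAT boxes, of which the 2 nearest to the start overlap each other. In PLK1 a single CHR match began 29 bases before the start and a single CCAAT box 73 bases before it. In CENPA the CHR match began 18 bases before the start, with CCAAT boxes at 205 and 130 bases before it. Of the 34 members with a window in the table, 23 held a CHR match (67.6%), against 13.5% of 15843 protein-coding promoters of the same length. A CCAAT box was present in 25 members (73.5%, against 36.4%) and both motifs in 19 (55.9%, against 5.57%). Among a further list of mitosis and G2/M genes, 38 of 53 windows held a CHR match, whereas 2 of 38 windows of G1/S and DNA replication genes did. A match is a description of these letters and not of a bound site.

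The libraries held 7461309 to 8349448 expected counts. The basal mammary epithelial markers fixed for the line were present, with a mean of at least 1 FPKM for 10 of 10, among them the keratins KRT5 and KRT14. Their summed level was 17005 to 18704 FPKM in NT libraries (10318 to 13162 with TPL) and 7733 to 8012 FPKM in TAM libraries (3952 to 4291 with TPL), a sum carried by KRT5, KRT17 and KRT6A. Of the 10 basal markers 3 fell in TAM against NT cells with DMSO, and 4 had a log2 fold change above 0. Luminal markers reached 1 FPKM for 6 of 7, with a sum of 1971 to 2279 FPKM in NT libraries (1167 to 2028 with TPL) and 1114 to 1459 FPKM in TAM libraries (977 to 1049 with TPL). Of the 8 fibroblast markers 2 reached 1 FPKM. Of the 7 endothelial and leukocyte markers 3 did, with a sum of 57.4 to 59.8 FPKM in NT and 289 to 310 FPKM in TAM libraries that was carried by CD68, while VWF and CD3E stayed at or below 0.17 FPKM. The part of these markers in the results below was not tested. In bulk RNA, fewer mitotic cells and less RNA per mitotic cell cannot be told apart.

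The 40 genes took up little of each library and were measured on few reads. NT libraries gave them 0.0417% and 0.0419% of all expected counts, a share that was 0.0649% and 0.0482% once TPL was added. TAM libraries gave them 0.141% and 0.140%, and 0.0906% and 0.0998% once TPL was added. The share was thus highest in the TAM libraries, lower in TAM + TPL and lowest in NT, and no library of one of these 3 groups overlapped another. The median of the gene means was 1.90 FPKM in NT cells (2.53 with TPL) and 7.46 FPKM in TAM cells (4.99 with TPL). PTTG1, which encodes securin, had the highest level in every group, and 12 genes were below 1 FPKM in NT cells, against 0 genes in TAM cells. The replicates differed most in NT + TPL. After 0.1 FPKM was added to each value, 8 genes differed more than 2-fold between its libraries (FOXM1, AURKB, BUB1B, CENPE, ASPM, CKAP2, MKI67 and ANLN). With that addition 2 did in NT, 3 in TAM + TPL and 0 in TAM. Without it NDC80 (0.17 and 0.06 FPKM) and AURKB (1.98 and 0.94 FPKM) also differed more than 2-fold in NT. In NT + TPL, 26 of the 40 genes were higher in replicate 1.

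**Figure D1:**
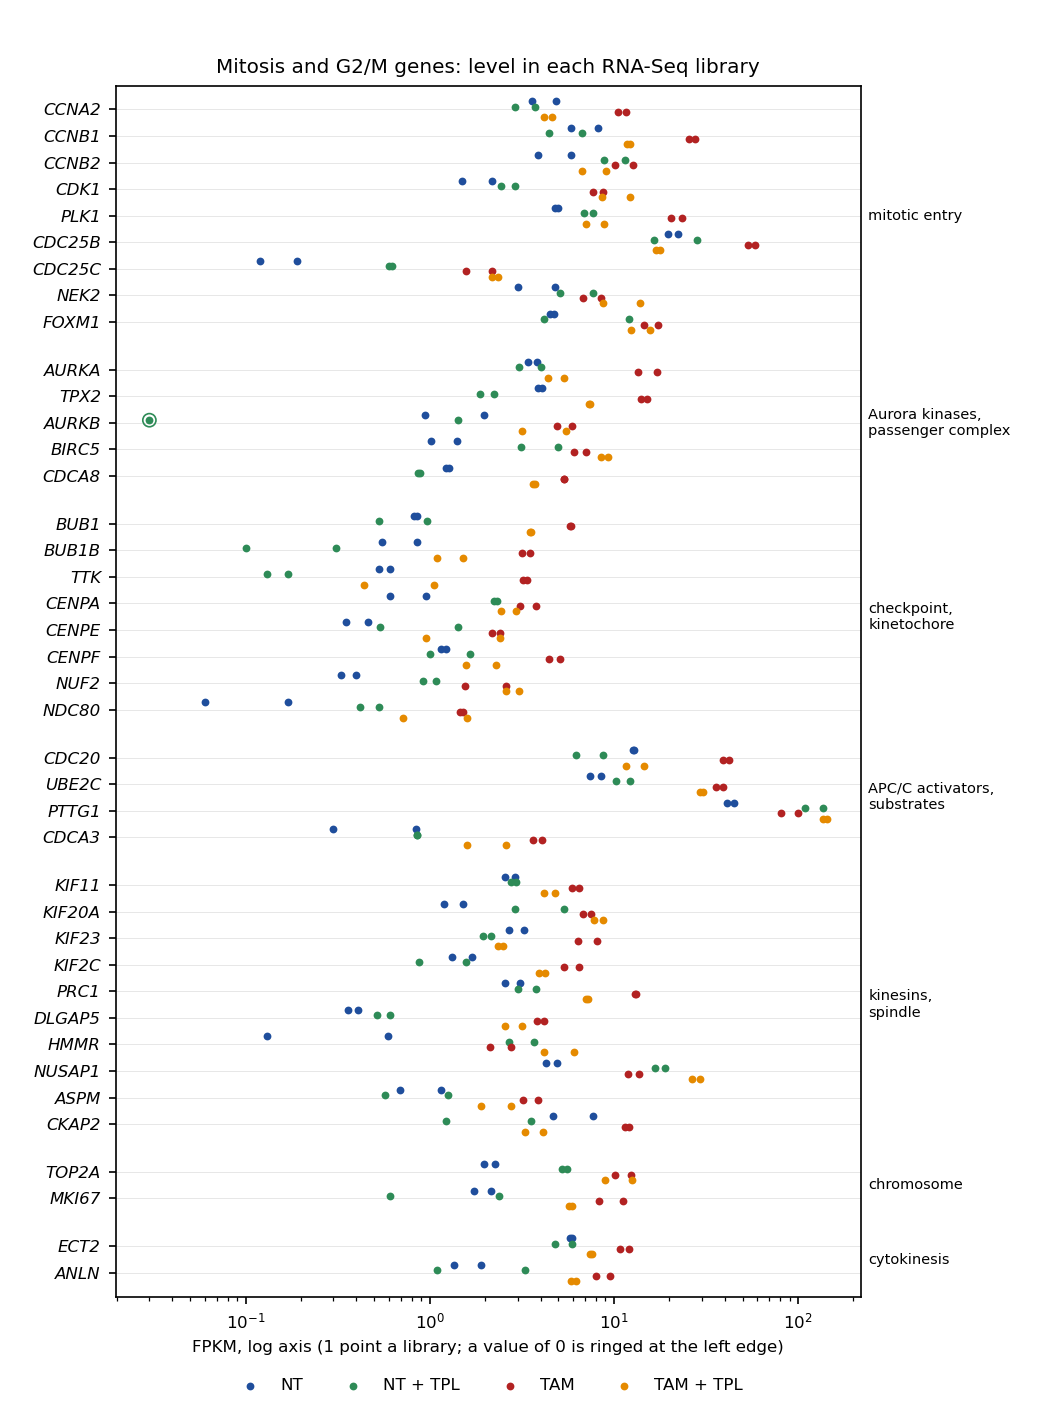
FPKM of the 40 genes in each of the 8 RNA-Seq libraries on a log axis, 1 point per library, coloured by group and ordered by the role of the gene. Every TAM point (red) lies to the right of both NT points (blue) of the same gene, and AURKB is listed at 0 in 1 NT + TPL library (ringed).

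The first comparison asked how the transformed cells differed from their progenitors before TPL. All 40 genes were higher in both TAM libraries than in both NT libraries, and 34 rose significantly (edgeR quasi-likelihood test, Benjamini-Hochberg adjusted p of at most 0.05 over 16948 genes). No gene fell. Over all genes tested 3.46% rose and 3.39% fell, and 24.0% had both TAM libraries above both NT libraries. The median log2 fold change of the 40 genes was 2.13, against -0.03 for all genes tested. The thresholds of the study (an adjusted p no higher than 0.001 together with a log2 change of 1.2 or more) were applied, here and below, to the edgeR results. They were not applied to the study's own calls, which came from its own processing. With them 3 genes rose, TPX2, UBE2C and PRC1, against 0.378% of all genes, and 0 fell, against 0.277%. The 6 genes that did not pass were CCNB2, NEK2, FOXM1, AURKB, CENPE and CKAP2, with log2 fold changes from 0.97 to 2.50. With 1 library left out, the count was 17 without NT replicate 1, 14 without NT replicate 2, 18 without TAM replicate 1 and 16 without TAM replicate 2, and 13 genes passed whichever library was left out.

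CDC25C and NDC80 had the largest differences in this comparison, on very few NT reads. CDC25C, a phosphatase that activates CDK1, was at 0.12 and 0.19 FPKM in NT and 1.58 and 2.19 FPKM in TAM libraries. The NT values rest on 2 and 3 expected counts. With NT set to 3 counts per library the level in TAM cells was 11.2-fold higher (fitted log2 fold change 3.69, SE 0.50, adjusted p = 0.00691). NDC80, an outer kinetochore protein that holds microtubules, was at 0.17 and 0.06 FPKM in NT and 1.51 and 1.46 FPKM in TAM libraries. Both NT libraries held 3 counts or fewer. With NT set to 3 counts per library the level in TAM cells was 8.91-fold higher (fitted log2 fold change 3.67, SE 0.74, adjusted p = 0.0311).

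Spindle genes with more reads rose by a similar amount. DLGAP5, which stabilises microtubules near the chromosomes, was at 0.36 and 0.41 FPKM in NT and 4.17 and 3.82 FPKM in TAM libraries (log2 fold change 3.37, SE 0.34, adjusted p = 0.00208). BUB1, a kinase of the spindle checkpoint, was at 0.82 and 0.85 FPKM in NT and 5.80 and 5.85 FPKM in TAM libraries (2.82, SE 0.32, adjusted p = 0.00314). HMMR, a spindle protein and hyaluronan receptor, was at 0.59 and 0.13 FPKM in NT and 2.12 and 2.76 FPKM in TAM libraries (2.83, SE 0.63, adjusted p = 0.0451). The 2 NT libraries of HMMR lay far apart, on 14 and 3 counts, and it passed in 3 of the 8 fits that leave out a library. NDC80 also passed in 3 of 8, and DLGAP5 and BUB1 in 8 of 8.

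By role, the rise covered every group of genes. All 4 genes around the anaphase-promoting complex rose (CDC20, UBE2C, PTTG1 and CDCA3), as did 7 of 8 checkpoint, kinetochore and centromere genes, 9 of 10 kinesins and spindle proteins and 4 of 5 genes of the Aurora kinases and the chromosomal passenger complex. Of the 9 genes of mitotic entry 6 rose, and TOP2A, MKI67, ECT2 and ANLN rose as well. The smallest significant rise was that of ECT2, the exchange factor that starts the cleavage furrow, at 5.79 and 5.89 FPKM in NT and 10.9 and 12.1 FPKM in TAM libraries (log2 fold change 0.99, SE 0.17, adjusted p = 0.0168). AURKB is uncertain, since its reads were split over 9 entries of the deposited tables. With the entries summed its log2 fold change was 1.91 (SE 0.52, adjusted p = 0.0838).

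With TPL present, the difference between TAM and NT cells was smaller. Of the 40 genes 11 were significantly higher in TAM + TPL than in NT + TPL libraries and 0 lower, against 2.83% higher and 4.21% lower among all genes tested. All 11 had also passed with DMSO. The median log2 fold change was 1.01, and 34 genes had both TAM + TPL libraries above both NT + TPL libraries, against 23.8% of all genes. At the thresholds of the study 0 passed, against 0.36% of all genes upwards and 0.236% downwards. DESeq2 called 21 genes, for which the share of all genes was not counted. Without NT + TPL replicate 1 the count was 18, without TAM + TPL replicate 1 or 2 it was 4 or 3, and without TAM replicate 1 or 2 it was 6 or 7. With only the libraries compared in the fit it was 3. TPX2 and CDCA8 passed whichever library was left out.

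The 5 largest of these differences lay in checkpoint, spindle and passenger genes and in CDK1. BUB1B, a checkpoint kinase relative that restrains CDC20, was at 0.31 and 0.10 FPKM in NT + TPL and 1.09 and 1.52 FPKM in TAM + TPL libraries (log2 fold change 2.62, SE 0.53, adjusted p = 0.0315). DLGAP5 was at 0.52 and 0.61 FPKM in NT + TPL and 2.57 and 3.19 FPKM in TAM + TPL libraries (2.33, SE 0.32, adjusted p = 0.00779). BUB1 was at 0.97 and 0.53 FPKM in NT + TPL and 3.55 and 3.50 FPKM in TAM + TPL libraries (2.23, SE 0.31, adjusted p = 0.00825). The groups did not overlap for any of the 3, although BUB1B rests on 9 and 3 counts in NT + TPL and passed in 2 of the 8 fits that leave out a library. CDCA8 encodes borealin, a subunit of the passenger complex. It was at 0.86 and 0.89 FPKM in NT + TPL and 3.66 and 3.75 FPKM in TAM + TPL libraries (2.07, SE 0.27, adjusted p = 0.00669). CDK1 was at 2.44 and 2.90 FPKM in NT + TPL and 8.59 and 12.3 FPKM in TAM + TPL libraries (1.93, SE 0.31, adjusted p = 0.0139). Both kept non-overlapping groups under TPL.

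At the other end, 7 genes differed by less than 0.4 on the log2 scale once TPL was present (PLK1, PTTG1, CENPA, KIF23, CDC25B, CCNA2 and CCNB2), of which 4 are given here, chosen after their values were seen. PLK1 differed by 0.10 (SE 0.19, adjusted p = 0.841), CENPA by 0.22 (SE 0.40, adjusted p = 0.82), CCNB2 by -0.39 (SE 0.29, adjusted p = 0.501) and CDC25B by -0.32 (SE 0.27, adjusted p = 0.567) on the log2 scale, TAM + TPL against NT + TPL. With DMSO the same 4 genes had differed by 2.19, 2.15, 1.25 and 1.40. The comparisons with DMSO and with TPL share no library, and the test of their difference is given below.

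**Figure D2:**
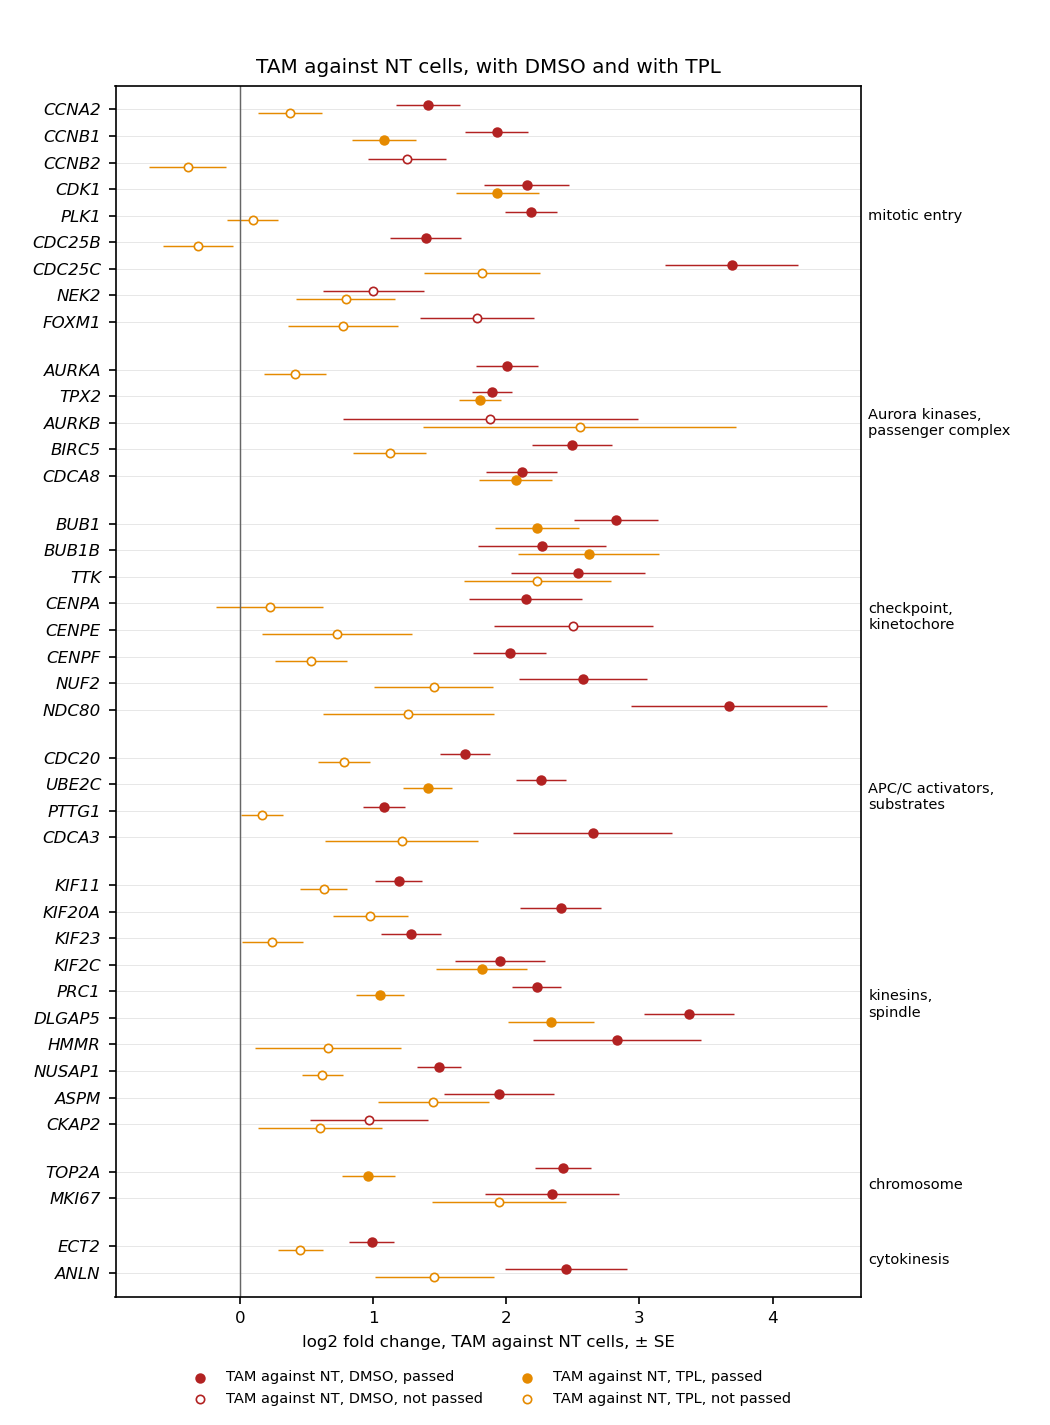
Log2 fold change of TAM against NT cells with its SE for each of the 40 genes, with DMSO (red) and with TPL (orange), filled where the adjusted p is at most 0.05. All 40 red points lie above 0 and 34 are filled, whereas 38 orange points lie above 0 and 11 are filled.

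The second comparison asked what TPL did to these genes in NT cells. TPL raised 9 and lowered 4 of the 40 genes, against 17.2% raised and 19.8% lowered among all genes tested. The genes that rose were CCNB2, CDC25C, BIRC5, CENPA, PTTG1, KIF20A, HMMR, NUSAP1 and TOP2A, and those that fell were TPX2, BUB1B, TTK and CDC20. The median log2 fold change was 0.34, against 0.09 for all genes tested, but it was -0.05 with the libraries scaled to GAPDH. GAPDH scaling moved the median of all genes to -0.26 and gave 6 rises and 7 falls, while upper quartile scaling moved it to 0.31 and gave 12 rises and 1 fall. Relative to all genes the members' median stayed higher, by 0.20 with GAPDH and by 0.25 with upper quartile scaling. Of the 40 genes, 18 had both NT + TPL libraries above both NT libraries (36.4% of all genes) and 7 had both below (32.7%).

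The counts in NT cells depended on single libraries. Without NT replicate 2 there were 5 rises. The falls numbered 1 without NT replicate 1 or NT replicate 2, and 2 without NT + TPL replicate 2 or without either TAM replicate. The members' median was 0.09 without NT + TPL replicate 1. The genes that passed in all 8 such fits were TPX2, BIRC5, PTTG1, HMMR, NUSAP1 and TOP2A. With the thresholds of the study PTTG1 and NUSAP1 rose and no gene fell, against 1.22% and 2.71% of all genes.

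NUSAP1 and PTTG1 had the smallest adjusted p among the rises with TPL, and both also rose in TAM cells. NUSAP1, a microtubule-bundling protein of the spindle, was at 4.28 and 4.93 FPKM in NT and 19.1 and 16.7 FPKM in NT + TPL libraries, a 3.89-fold difference (log2 fold change 1.96, SE 0.17, adjusted p = 0.000466). In TAM and TAM + TPL libraries it was at 11.9 and 13.6 FPKM and at 26.5 and 29.5 FPKM (1.08, SE 0.16, adjusted p = 0.00312). PTTG1 was at 45.2 and 41.1 FPKM in NT libraries and 137 and 109 FPKM once TPL was added, compared with 81.3 and 99.6 FPKM in TAM libraries and 137 and 144 FPKM once TPL was added. With TPL it rose by 1.51 on the log2 scale in NT cells (SE 0.16, adjusted p = 0.000942), and the rise in TAM cells was 0.59 (SE 0.16, adjusted p = 0.0275). For both genes the groups with and without TPL did not overlap in either state.

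HMMR, CDC25C and BIRC5 made up the rest of the largest rises in NT cells. HMMR went from 0.59 and 0.13 FPKM to 2.70 and 3.69 FPKM with TPL (log2 fold change 3.18, SE 0.64, adjusted p = 0.0093). CDC25C went from 0.12 and 0.19 FPKM to 0.62 and 0.60 FPKM. The NT values rest on 2 and 3 counts, and with NT set to 3 counts per library this was 3.73-fold higher (fitted log2 fold change 2.10, SE 0.50, adjusted p = 0.0179). BIRC5, which encodes survivin of the passenger complex, went from 1.40 and 1.02 FPKM to 4.98 and 3.12 FPKM (1.76, SE 0.30, adjusted p = 0.00498). In TAM cells the same 3 genes did not pass, with log2 fold changes of 1.01 (SE 0.55) for HMMR, 0.22 (SE 0.41) for CDC25C and 0.39 (SE 0.27) for BIRC5.

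The largest fall in NT cells was that of TTK, the kinase that starts spindle checkpoint signalling. It was at 0.53 and 0.61 FPKM in NT and 0.13 and 0.17 FPKM in NT + TPL libraries (log2 fold change -1.88, SE 0.56, adjusted p = 0.0362). These values rest on 13 and 15 against 3 and 4 counts, and the call passed in 2 of the 8 fits that leave out a library. TPX2, which activates Aurora A on the spindle, fell from 4.08 and 3.88 FPKM to 2.24 and 1.88 FPKM (-0.96, SE 0.16, adjusted p = 0.00473), and passed in all 8. With only the NT and NT + TPL libraries in the fit, none of the 4 falls passed, TPX2 included, and 6 genes rose.

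The third comparison asked the same of TAM cells, where falls outnumbered rises. TPL lowered 13 of the 40 genes and raised 2, against 18.6% lowered and 14.3% raised among all genes tested. The median log2 fold change was -0.58, against 0.05 for all genes tested, and it lay below 0 under each of the 4 other scalings tried. The genes that fell were CCNA2, CCNB1, PLK1, CDC25B, AURKA, TPX2, TTK, CENPF, CDC20, KIF23, PRC1, CKAP2 and ECT2. Both TAM + TPL libraries were below both TAM libraries for 26 of the 40 genes, against 34.7% of all genes. No gene passed the thresholds of the study, which 2.04% of all genes passed downwards and 0.844% upwards. There were 6 falls without TAM + TPL replicate 1 and 1 rise without any single TAM or TAM + TPL library. PLK1, CDC25B, AURKA, TPX2, CDC20, KIF23 and NUSAP1 passed in all 8 such fits.

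The falls were spread over mitotic entry, the spindle and the checkpoint. TTK went from 3.39 and 3.20 FPKM in TAM to 0.44 and 1.05 FPKM in TAM + TPL libraries (log2 fold change -2.18, SE 0.49, adjusted p = 0.0157). CDC20, the activator of the anaphase-promoting complex, went from 39.3 and 42.5 FPKM to 11.7 and 14.5 FPKM, a 3.22-fold lower level (-1.69, SE 0.19, adjusted p = 0.00124). CKAP2, a microtubule-associated protein, went from 12.0 and 11.4 FPKM to 3.28 and 4.12 FPKM (-1.65, SE 0.46, adjusted p = 0.0319). All 3 genes had lower values with TPL in NT cells too, where CDC20 changed by -0.78 (SE 0.19, adjusted p = 0.0203), and CKAP2 by -1.28 (SE 0.47, adjusted p = 0.0689). CKAP2 in TAM cells passed in 4, TTK in 5 and CDC20 in 8 of the 8 fits that leave out a library.

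CDC25B and KIF23 completed the 5 largest falls. CDC25B, the phosphatase that first activates CDK1 in G2, was at 58.6 and 53.5 FPKM in TAM and 17.9 and 16.9 FPKM in TAM + TPL libraries (log2 fold change -1.62, SE 0.27, adjusted p = 0.00527). In NT cells it was at 19.7 and 22.2 FPKM and, with TPL, at 28.4 and 16.5 FPKM, which overlapped. KIF23, a kinesin of the central spindle, was at 6.39 and 8.14 FPKM in TAM and 2.34 and 2.49 FPKM in TAM + TPL libraries (-1.61, SE 0.23, adjusted p = 0.00286). For both genes the TAM + TPL values lay below both NT libraries without TPL.

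PLK1, which drives centrosome maturation and spindle assembly, had values on opposite sides of 0 in the 2 states. It was at 4.77 and 4.99 FPKM in NT libraries and 6.85 and 7.69 FPKM once TPL was added, compared with 23.6 and 20.4 FPKM in TAM libraries and 8.82 and 7.03 FPKM once TPL was added. The NT + TPL libraries thus lay above the NT libraries and the TAM + TPL libraries below the TAM libraries, where they overlapped the NT + TPL libraries. The fall in TAM cells passed (-1.52, SE 0.19, adjusted p = 0.00184) and the value in NT cells did not (0.57, SE 0.20, adjusted p = 0.0573). AURKA, the Aurora kinase of the spindle poles, was at 3.81 and 3.42 FPKM in NT libraries and 4.02 and 3.04 FPKM once TPL was added, compared with 13.5 and 17.2 FPKM in TAM libraries and 4.40 and 5.33 FPKM once TPL was added. It fell in TAM cells (-1.59, SE 0.23, adjusted p = 0.00298) while its value in NT cells was 0.00 (SE 0.23, adjusted p = 0.996).

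Set side by side, the responses to TPL in NT and TAM cells, which share no library, ranked the 40 genes in much the same order (Pearson r = 0.78, Spearman rho = 0.75 across 40 genes, against 0.59 and 0.75 across all 16948 genes tested). Genes share their libraries and are not independent replicates. NUSAP1 and PTTG1 rose in both states, and CDC20, TPX2 and TTK fell in both. A further 7 genes passed only the test in NT cells upwards (BIRC5, CCNB2, CDC25C, CENPA, HMMR, KIF20A and TOP2A), BUB1B passed it downwards, and 10 passed only the test in TAM cells, downwards (AURKA, CCNA2, CCNB1, CDC25B, CENPF, CKAP2, ECT2, KIF23, PLK1 and PRC1). By sign alone 16 genes were above 0 in NT and below 0 in TAM cells, 15 were below 0 in both, 9 were above 0 in both and 0 had the reverse pattern. These joint counts were not made over all genes tested, so whether they depart from those of all genes was not tested.

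**Figure D3:**
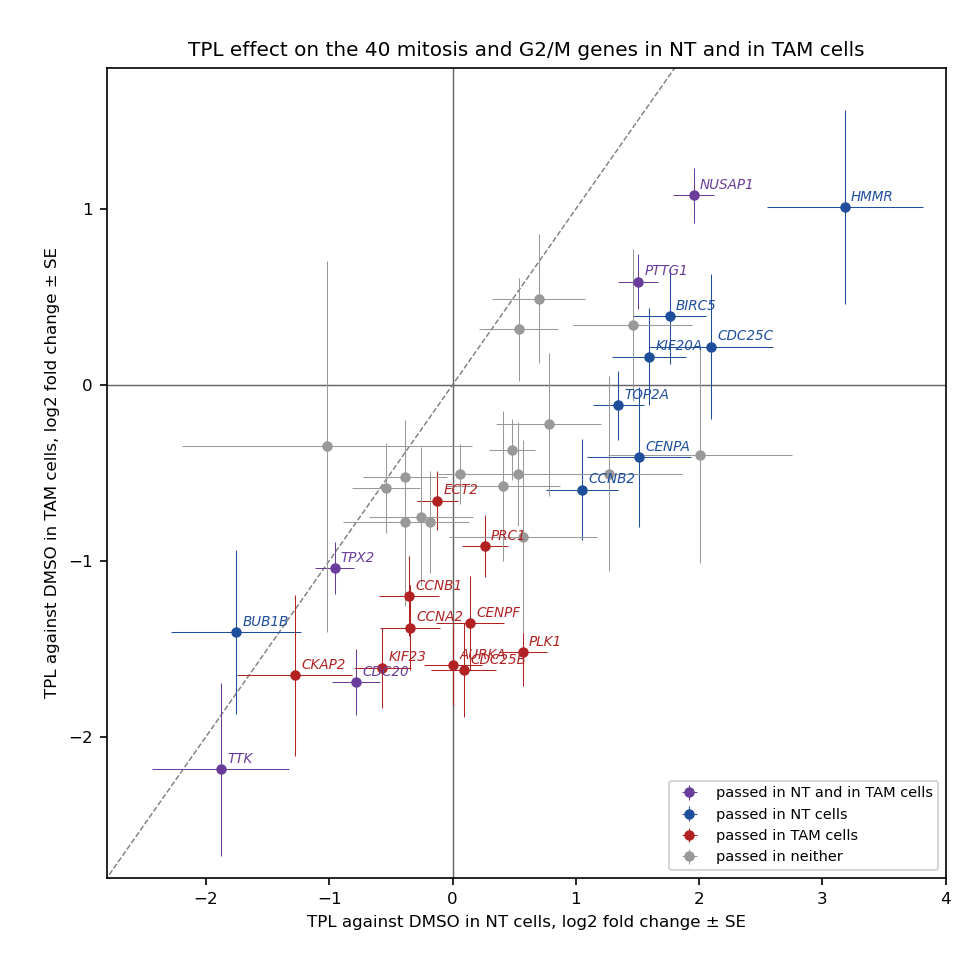
Log2 fold change with TPL in NT cells (x axis) and in TAM cells (y axis) for the 40 genes, with SE bars, coloured by the state in which the adjusted p is at most 0.05. All but 2 points (AURKB and BUB1B) lie below the dashed line of equal change, and names are given for the 23 genes that passed in at least 1 state.

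The difference between the 2 responses was tested gene by gene as an interaction. It was below 0 for 38 of the 40 genes, meaning that TPL moved the gene further down, or less far up, in TAM than in NT cells, with a median of -1.0 on the log2 scale against -0.02 for all genes tested. None of the 40 passed the edgeR test after adjustment, against 0.0885% of all genes above and 0.0767% below 0. Before adjustment 20 genes below 0 and 0 above had a p under 0.05, against 5.59% and 5.03% of all genes. DESeq2 called 10 genes, all below 0 (CCNB2, PLK1, CDC25B, AURKA, CENPF, PTTG1, KIF20A, PRC1, NUSAP1 and TOP2A). The share of all genes that DESeq2 called was not counted, and the shares above are from edgeR. Scaled to GAPDH, which moved the median of all genes to 0.22, 33 of the 40 genes were below 0 and the median was -0.72. Without NT + TPL replicate 2 CDC25B passed, and without each other library 0 genes passed.

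PLK1 came closest to passing, with a difference of -2.09 (SE 0.27, adjusted p = 0.0523). Over the alternatives its difference lay between -2.27 and -1.86, and its adjusted p between 1.34e-07 with DESeq2 and 0.214 without NT replicate 2. NDC80 and HMMR had differences of similar size with wide errors, -2.41 (SE 0.96, adjusted p = 0.459) and -2.17 (SE 0.83, adjusted p = 0.428). CENPA, the histone that marks the centromere, went from 0.61 and 0.96 FPKM in NT to 2.33 and 2.23 FPKM in NT + TPL and was at 3.11 and 3.79 FPKM in TAM and 2.44 and 2.93 FPKM in TAM + TPL libraries. Its difference was -1.92 (SE 0.58, adjusted p = 0.328).

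CDCA8, KIF2C and TTK had the largest adjusted p in this test. CDCA8 was at 1.28 and 1.23 FPKM in NT and 5.38 and 5.39 FPKM in TAM libraries, with 0.86 and 0.89 FPKM and 3.66 and 3.75 FPKM under TPL, and its difference was -0.04 (SE 0.40, adjusted p = 1). KIF2C, a kinesin that takes microtubules apart at the centromere, was at 1.69 and 1.32 FPKM in NT libraries and 1.58 and 0.87 FPKM once TPL was added, compared with 6.43 and 5.38 FPKM in TAM libraries and 3.93 and 4.21 FPKM once TPL was added (-0.14, SE 0.47, adjusted p = 0.958). The TTK difference was -0.30 (SE 0.82, adjusted p = 0.939). These 3 genes were chosen for their large adjusted p. With the errors given, their small differences do not show that the ratio of TAM to NT was the same with and without TPL.

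A further list of 64 mitosis and G2/M genes, of which 63 were tested, was described by the same counts. In TAM against NT cells with DMSO 28 rose and 0 fell (3.46% and 3.39% of all genes tested), with a median log2 fold change of 1.33. TPL raised 7 and lowered 9 in NT cells (17.2% and 19.8% of all genes), with a median of 0.11 against 0.09 for all genes. By sign 36 genes of this list were above 0 and 27 below. In TAM cells it raised 3 and lowered 15 (14.3% and 18.6% of all genes), with a median of -0.39. The interaction median was -0.53, and 0 passed. The largest rise with DMSO among those with at least 1 FPKM was that of CEP55, a midbody protein, at 1.21 and 1.2 FPKM in NT and 8.17 and 9.70 FPKM in TAM libraries (2.89, SE 0.36, adjusted p = 0.00478). SPAG5, a spindle pole protein, rose most with TPL in each state among those of at least 1 FPKM that passed the test. It went from 0.93 and 0.93 FPKM to 6.58 and 4.92 FPKM in NT (2.62, SE 0.23, adjusted p = 0.000525) and from 4.52 and 3.76 FPKM to 9.47 and 12.0 FPKM in TAM cells (1.33, SE 0.21, adjusted p = 0.00427). The largest log2 fold change of the list in TAM cells was 1.83.

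WEE1 and LMNB1 were the largest falls with TPL, in NT and TAM cells respectively, among genes of that list with at least 1 FPKM. WEE1, the kinase that holds CDK1 inactive, went from 10.9 and 7.86 FPKM to 1.28 and 1.5 FPKM in NT (log2 fold change -2.77, SE 0.33, adjusted p = 0.00129) and from 8.60 and 6.0 FPKM to 1.68 and 1.09 FPKM in TAM cells (-2.44, SE 0.32, adjusted p = 0.00226). LMNB1, a lamina protein, went from 12.8 and 11.2 FPKM in TAM to 2.08 and 2.53 FPKM in TAM + TPL libraries (-2.76, SE 0.47, adjusted p = 0.0056). MYBL2, the late cell cycle activator, was at 2.58 and 2.11 FPKM in NT libraries and 5.34 and 4.43 FPKM once TPL was added, compared with 10.1 and 6.68 FPKM in TAM libraries and 9.25 and 8.66 FPKM once TPL was added. It rose with TPL in NT (1.08, SE 0.26, adjusted p = 0.0176) and not in TAM cells (0.06, SE 0.24, adjusted p = 0.879), as FOXM1, at 0.78 (SE 0.43) and -0.22 (SE 0.41), passed in neither.

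The RNAPII lists were read at the canonical GENCODE start of each gene, with 1 list per condition, no replicate lists and no peak heights, so that counts from them carry no test. The start lay in a listed peak for 33 of the 40 genes in NT cells (39 with TPL) and for 13 in TAM cells (14 with TPL). Of 19856 protein-coding genes 47.8% (38.3% with TPL) and 42.1% (37.4% with TPL) did. The 40 genes thus had more starts in peaks than the background in both NT lists and fewer in both TAM lists. Of the further 64 mitosis and G2/M genes, 54 starts were in peaks in NT (57 with TPL) and 23 in TAM cells (25 with TPL). Of 47 G1/S and DNA replication genes, 46 (40 with TPL) and 32 (21 with TPL) were. Fewer starts in TAM than in NT peaks were therefore not particular to the 40 genes. The peak names of the TAM list carry a caller setting (q of 0.1) that differs from that of the other 3 lists (cutoff of 0.02), and the names point to a single sample per list. The TAM + TPL list carries the same setting as the NT lists.

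By gene, 14 starts were in peaks in both NT lists and in neither TAM list, which was the case for 0.987% of protein-coding genes. They include PLK1, BIRC5, BUB1, TTK, NDC80, PTTG1, TOP2A and MKI67. A further 7 were in a peak only with TPL in NT cells (CDC25C, NEK2, BUB1B, CENPF, PRC1, DLGAP5 and ASPM), against 0.63% of protein-coding genes, and ECT2 only in NT (3.45%). CCNA2, CCNB1, CCNB2, TPX2 and CENPA lacked a peak at the start only in TAM (2.27% of protein-coding genes), and AURKA, CDC20, HMMR and CKAP2 only in TAM + TPL (2.04%). The remaining 9 were in peaks in all 4 lists (CDK1, CDC25B, FOXM1, AURKB, CENPE, NUF2, UBE2C, KIF11 and NUSAP1), against 31.5% of protein-coding genes.

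Many of the starts outside TAM peaks had a listed peak close by. In TAM cells 9 were within 100 bases of one and 5 more within 1000 bases, and 13 had none within 1000 bases. A peak within 1000 bases was listed for 34 of the genes in NT cells (40 with TPL) and 27 in TAM cells (22 with TPL), against 51.9% (42.1%) and 49.3% (41.5%) of protein-coding genes. At this wider window the genes were above the background in all 4 lists, so that the lower share at the start itself in both TAM lists turned round. Peaks over the starts were narrower in TAM, with a median of 252 bases (283 with TPL) against 768 in NT cells (780 with TPL). All 13 genes with a peak in both NT and TAM had the narrower one in TAM, as did 90.2% of such protein-coding genes.

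At the promoters printed above, the PLK1 window was covered whole in NT (chr16:23689844-23690454) and in NT + TPL (chr16:23689881-23690443), and the nearest peaks in TAM and TAM + TPL lay 37261 and 37195 bases upstream. The CENPA window was covered in NT (chr2:27008486-27009263) and NT + TPL (chr2:27008552-27009253). In TAM + TPL the peak there (chr2:27008634-27008933) ended 9 bases after the start, past the CHR match. The NDC80 start was in peaks in NT (chr18:2571302-2571736) and NT + TPL (chr18:2571326-2572063), which also hold the start of METTL4, and in TAM the peak (chr18:2571385-2571546) ended 10 bases before it. The HMMR peaks were 2966 bases wide in NT, 2421 in NT + TPL and 254 in TAM, and the 2 wide ones also hold the start of NUDCD2. A peak over a shared start cannot be assigned to either gene.

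The RNA calls were set beside the peak lists. Of the 34 genes whose RNA rose in TAM against NT cells with DMSO, 19 had the start in a peak in NT and not in TAM, 9 in both, 6 in neither and 0 in TAM alone. Of the genes that did not pass, 1 was in a peak in NT and not in TAM, 4 in both and 1 in neither. Among protein-coding genes 9482 starts were in an NT peak, and 8082 of these also in a TAM peak. The part of the differing caller setting of the TAM list in these counts was not tested. With TPL in NT cells the start was in a peak in NT + TPL for all 9 genes that rose and all 4 that fell, as it was for 26 of the 27 that did not pass. With TPL in TAM cells, of the 13 genes that fell 1 was in a peak in both lists, 3 only in TAM, 3 only in TAM + TPL and 6 in neither, while NUSAP1, which rose, was in a peak in both and PTTG1 in neither.

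**Figure D4:**
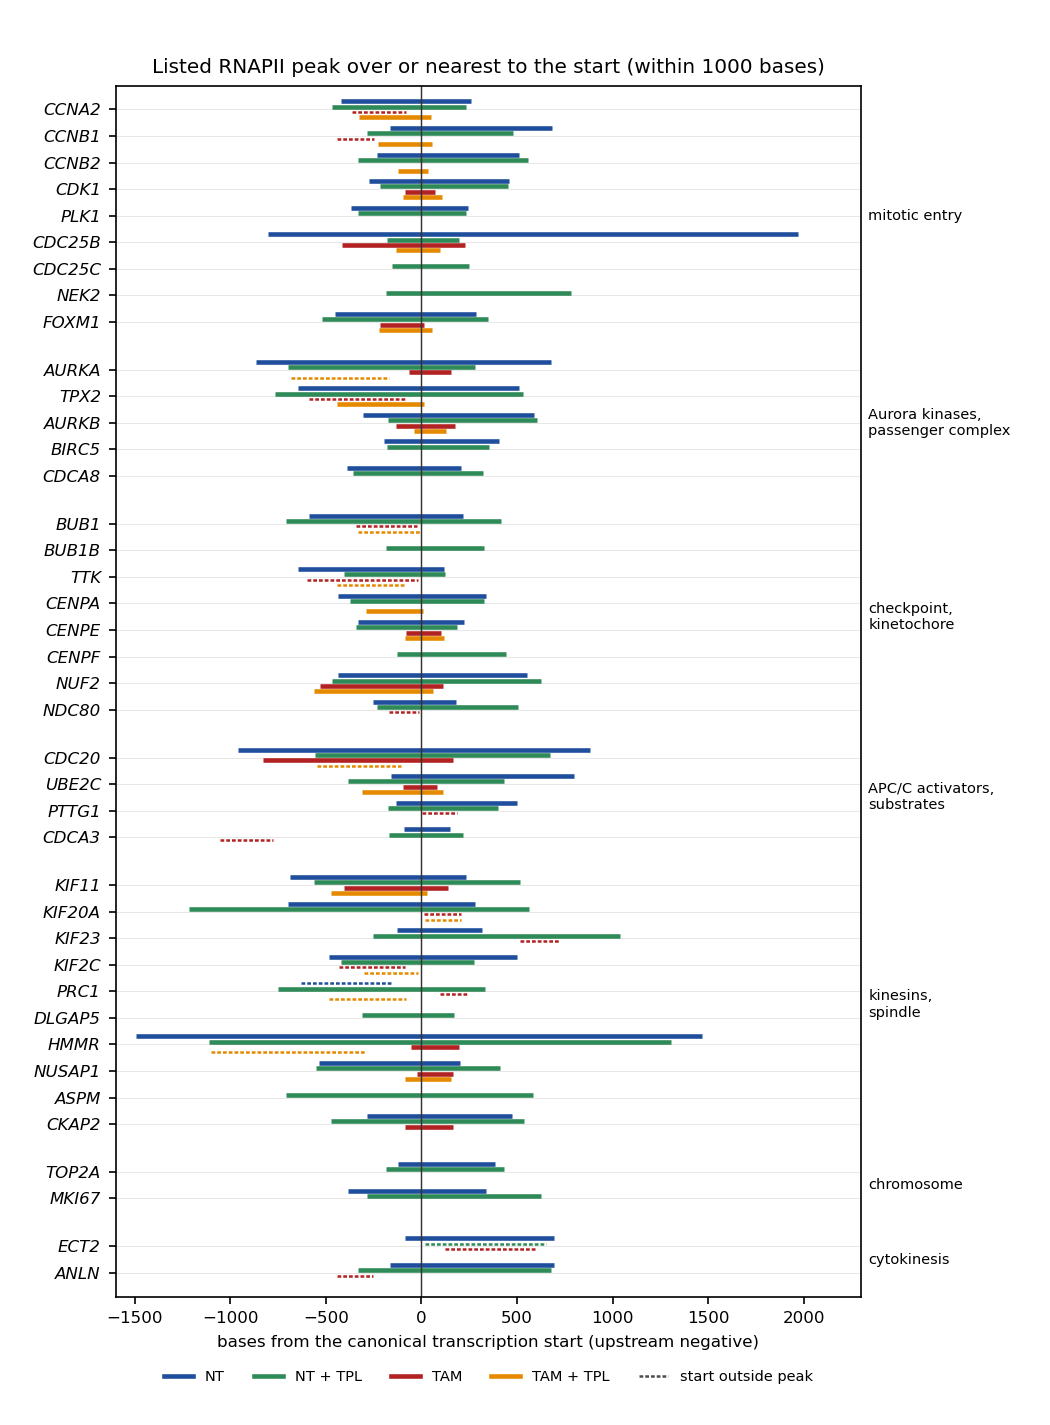
Listed RNAPII peak over or nearest to the canonical start of each of the 40 genes in the 4 conditions, in bases from the start with upstream negative, drawn where it lies within 1000 bases. Bars are coloured by condition. Solid bars hold the start, of which there are 33 for NT and 39 for NT + TPL against 13 for TAM and 14 for TAM + TPL, and dashed bars do not.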

How the data were processed

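RNA-Seq was measured in 8 libraries and RNAPII ChIP-Seq (antibody 8WG16) in 8 samples with 2 inputs. The expected counts were estimated by the authors with RSEM from poly-A reads aligned with Bowtie2 and are deposited without normalization. The FPKM values, also made by the authors with RSEM, are per kilobase of effective transcript length and per library total of mapped reads, so both scales are relative to the RNA of the library. The peak starts and ends (hg19, positions counted from 1 in the text) were deposited as 1 list per condition of peaks that hold a TSS. The study names SOAP2 for alignment, and its processing notes name BWA, MACS 1.4.2 and HOMER. Genes without a read are not listed and were taken as 0.

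The members and all lists were chosen with earlier results of these data known. The expected counts, rounded, entered 1 fit by edgeR 4.0.16 (R 4.3.3; TMM scaling, filterByExpr, quasi-likelihood test, Benjamini-Hochberg) of the 4 groups over 16948 genes. SE is the log2 fold change divided by the square root of F. A group whose libraries all had 3 counts or fewer was set to 3 counts per library for a fold against that floor. Such a fold is not a lower limit of the true difference. limma 3.58.1 (log2 of FPKM plus 1 or plus 0.1), DESeq2 1.42.0, other scalings and filters, a replicate block and leaving out each library were the alternatives. Named genes are, per comparison, the 5 members with the largest log2 fold change among those that passed, the 3 with the largest adjusted p in the interaction, the 4 with the largest interaction for promoters, and, of other lists, up to 3 rises and 3 falls with a mean of at least 1 FPKM, plus CDKN1A, E2F1 and MYBL2. A gene that this rule names is not reported here. Other members named in the text were chosen after their values were seen. In simulated counts for TAM against NT cells over 16948 genes, 54 of 100 genes changed by a log2 fold change of 2 and 32 of 100 changed by 1 were called, against 3 of 16748 unchanged genes. The changed genes were drawn at random from all genes tested, and fewer were changed than passed in the data. These rates are therefore not those of the members. Of the 23604 genes 143 matched no symbol. Starts are the GENCODE canonical transcripts on GRCh37, and promoter windows are from RefSeq.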

Additional observations from a re-analysis of the deposited data

How the results depend on the processing

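With 2 libraries per group and many genes on few reads, most single calls are near the limit of what this depth can show, and FPKM carries no count error of its own. The direction of every gene that passed was kept under each alternative and each left-out library. GAPDH scaling moved the median of all genes in TAM against NT cells with DMSO to -0.50 and left 23 rises. With it TPL lowered 7 genes in NT cells, while 1 rose in TAM cells, and with upper quartile scaling 1 fell in NT cells. Fitting only the groups compared left TPL with 0 falls in NT cells, and left 3 genes higher in TAM + TPL than NT + TPL, on fewer samples. DESeq2 gave 21 rises in TAM against NT cells with TPL and 10 interactions below 0, with no share of all genes counted beside them. limma on log2(FPKM + 0.1) gave 1 rise with TPL in TAM cells. The interaction counted 1 gene below 0 with limma on log2(FPKM + 1), with no filter on low counts and with 10 counts in every library. The thresholds of the study, by construction stricter and applied to the edgeR fit, left TPL with 2 rises and 0 falls in NT cells and 0 of either in TAM cells. They left 3 genes higher in TAM than NT cells in DMSO and 0 in TPL. For the other changes the cause was not tested.

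Leaving out single libraries gave 5 to 10 rises and 1 to 5 falls for TPL in NT cells, 1 to 2 rises and 6 to 16 falls for it in TAM cells, 14 to 36 genes higher in TAM than NT cells in DMSO, 3 to 18 in TPL, and 0 to 1 interactions below 0. A group left with a single library is assumed to vary like the others.

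Replicate numbers did not pair the libraries: deviations from the group means correlated by -0.135 to 0.05 between libraries of the same number. With TPL a replicate block gave 8 rises and 3 falls for NT cells and 2 rises and 12 falls for TAM cells, and TAM cells had 26 genes above NT cells in DMSO and 8 in TPL. Because the NT and NT + TPL correlation was -0.135, the block was also fitted with crossed numbers, chosen after seeing the data, and gave 10 rises and 4 falls. Summing the AURKB entries, also added later, changed no count of genes that passed. The AURKB interaction became -0.30 (SE 0.73) in place of 0.67, so that 39 genes were below 0 in that test.

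Starts in RNAPII peaks numbered 34 in NT cells (40 with TPL) and 19 in TAM cells (18 with TPL) with any annotated TSS of the gene, and 34 (40) and 27 (22) with a peak within 1 kb.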

Other observations

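Genes of the preceding phase of the cycle are given next. Of 46 G1/S and DNA replication genes tested, 21 rose and 0 fell in TAM against NT cells with DMSO (median log2 fold change 1.17), where 3.46% and 3.39% of all genes tested did. TPL lowered 21 and raised 0 in TAM cells (median -0.72), against 18.6% and 14.3% of all genes. In NT cells it lowered 10 and raised 7 (median -0.35), shares near those of all genes, 19.8% and 17.2%. The interaction median of these genes was -0.67, with 36 below 0 and 10 above, and 0 passed in edgeR. Before adjustment 11 genes below 0 and 1 above had a p under 0.05, against 5.59% and 5.03% of all genes. DTL, a replication licensing control factor, was at 1.14 and 1.01 FPKM in NT libraries and 0.50 and 0.76 FPKM once TPL was added, compared with 6.54 and 6.58 FPKM in TAM libraries and 2.36 and 2.54 FPKM once TPL was added. Its log2 fold change in TAM cells was 2.64 with DMSO (SE 0.27, adjusted p = 0.00242) and 1.95 with TPL (SE 0.28, adjusted p = 0.00882). CDC45, of the replicative helicase, rose from 0.43 and 0.13 FPKM in NT to 3.95 and 3.29 FPKM in TAM libraries (3.64, SE 0.73, adjusted p = 0.0316).

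With TPL, CDC25A, the phosphatase of the G1/S step, fell from 2.96 and 2.90 FPKM to 0.29 and 0.51 FPKM in NT cells (-2.91, SE 0.34, adjusted p = 0.00131). CCNE2, a G1/S cyclin, rose from 0.72 and 1.17 FPKM to 4.49 and 3.31 FPKM in NT cells (2.03, SE 0.32, adjusted p = 0.00388). CDC25A was also higher in TAM + TPL, at 1.58 and 1.57 FPKM, than in NT + TPL libraries (1.98, SE 0.34, adjusted p = 0.0182).

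Of 21 MuvB, DREAM, E2F and NF-Y regulators, 0 passed in TAM against NT cells with DMSO or with TPL in edgeR. Among all genes tested 3.46% rose and 3.39% fell with DMSO, and 2.83% and 4.21% with TPL. At these shares 0 of so few genes does not set the list apart. At an unadjusted p under 0.05 there were 4 and 1, with no share of all genes counted. TPL lowered 8 and raised 2 in NT cells (19.8% and 17.2% of all genes), and lowered 7 and raised 2 in TAM cells (18.6% and 14.3%). Among those of at least 1 FPKM that passed the test E2F5 fell most, from 6.91 and 7.75 FPKM to 1.56 and 0.25 FPKM in NT (-3.06, SE 0.66, adjusted p = 0.0127) and from 6.70 and 7.54 FPKM to 0.77 and 1.0 FPKM in TAM cells (-3.0, SE 0.66, adjusted p = 0.0147). E2F1, at 0.99 and 1.13 FPKM in NT and 2.84 and 3.02 FPKM in TAM libraries, passed in neither direction (1.48, SE 0.62, adjusted p = 0.248). A list of 16 genes of the anaphase-promoting complex held its subunits, the co-activator FZR1 and the ubiquitin-conjugating enzyme UBE2S. It had 0 rises and 0 falls between TAM and NT cells with DMSO in edgeR, again near the shares of all genes (3.46% and 3.39%). At an unadjusted p under 0.05, 3 were above and 0 below 0. TPL lowered 7 of these 16 genes and raised 3 in NT cells (19.8% and 17.2% of all genes). In TAM cells it lowered 7 and raised 1 (18.6% and 14.3%). UBE2S rose in both states, from 99.97 and 82.35 FPKM to 259 and 302 FPKM in NT cells (1.62, SE 0.17, adjusted p = 0.000846) and from 155 and 139 FPKM to 271 and 289.97 FPKM in TAM cells (0.88, SE 0.16, adjusted p = 0.00783). It was chosen after its values were seen. ANAPC15 was lower in TAM + TPL, at 11.3 and 14.6 FPKM, than in NT + TPL libraries, at 32.0 and 27.7 FPKM (-1.23, SE 0.20, adjusted p = 0.0152).

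Of the 10 CDK inhibitors and p53 arrest genes tested, CDKN1C, SFN and GADD45A fell in TAM against NT cells with DMSO. None rose, and among all genes tested 3.39% fell and 3.46% rose. TPL raised 3 and lowered 2 of the 10 in NT cells (17.2% and 19.8% of all genes), with a median log2 fold change of -0.25. In TAM cells it raised 4 and lowered 1 (14.3% and 18.6% of all genes), with a median of 0.35. CDKN1C (p57) was at 26.2 and 19.8 FPKM in NT and 1.22 and 0.81 FPKM in TAM libraries (-4.49, SE 0.36, adjusted p = 0.000852), and at 47.6 and 27.8 FPKM in NT + TPL and 3.58 and 4.39 FPKM in TAM + TPL libraries (-3.23, SE 0.31, adjusted p = 0.00186). CDKN1C rose with TPL in TAM cells (1.98, SE 0.37, adjusted p = 0.00781). SFN (14-3-3 sigma) went from 2440 and 1880 FPKM in NT to 896 and 810 FPKM in TAM libraries (-1.32, SE 0.19, adjusted p = 0.00901), and GADD45A from 35.2 and 37.8 FPKM to 14.6 and 19.3 FPKM (-1.09, SE 0.18, adjusted p = 0.0159). CDKN1A (p21) rose with TPL, from 91.1 and 93.1 FPKM to 315 and 234 FPKM in NT (1.56, SE 0.17, adjusted p = 0.00105) and from 77.6 and 78.8 FPKM to 181 and 143 FPKM in TAM cells (1.02, SE 0.17, adjusted p = 0.0056). CDKN2D and CDKN2C, inhibitors of CDK4 and CDK6, rose in NT cells by 2.61 (SE 0.54, adjusted p = 0.0102) and 1.8 (SE 0.48, adjusted p = 0.0261), and CDKN2C rose in TAM cells by 1.82 (SE 0.48, adjusted p = 0.0269).

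The 34 members with a promoter window were also set apart by the CHR match, with no test of the difference. The 23 with a match had a median log2 fold change with TPL of 0.41 in NT and -0.60 in TAM cells, and the 11 without one 0.09 and -0.51. In TAM against NT cells with DMSO the medians were 2.19 and 1.88, and 22 of 23 and 7 of 11 passed. The response to TPL was set against transcript length (Spearman rho -0.27 in NT and -0.28 in TAM cells across 40 genes, against -0.16 and -0.05 across all genes tested), given as a description with no test.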
